A study of Mus musculus with 8 samples.

Results

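The genes described here are 10 heat shock genes of the mouse, the cytosolic Hspa1a, Hspa1b, Hspa8, Hsp90aa1, Hsp90ab1, Hspb1, Dnajb1 and Hsph1 and the mitochondrial Hspd1 and Hspe1. They were taken by symbol from a table of read counts for 54532 genes, and all 10 were found in it and passed the filter on low counts, as 10 of 15472 genes tested. The counts come from RNA sequencing of frozen prostates of 8 male NOD mice, a strain that develops autoimmune disease spontaneously, and the etanercept-treated group (animals 17, 19, 50 and 52) was compared with the control group (animals 1, 3, 65 and 69). Etanercept is a soluble TNF receptor that binds the cytokine TNF. It was injected intraperitoneally at a dose of 4 mg/kg from an age of 25 weeks, over 5 weeks and with 2 doses in each, and the controls received PBS on the same schedule. Prostates were collected at 30 weeks. Diabetic and non-diabetic animals were not separated, and the labels do not say which mouse was diabetic. Each library is 1 mouse, so the spread within a group is the spread between animals.

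Heat shock proteins are chaperones that bind other proteins while these fold, unfold or are carried between compartments. HSP70 proteins work in cycles of ATP binding that are started by J proteins and reset by exchange factors, HSP90 takes over clients such as the androgen and other steroid hormone receptors, and small heat shock proteins hold unfolded proteins in solution. In the mitochondrial matrix a chamber of HSP60 with its HSP10 lid encloses proteins while they fold. When unfolded proteins build up, the transcription factor HSF1 binds arrays of the unit nGAAn, called heat shock elements, in front of the inducible members of these families.

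In these prostates no difference between the groups passed the test for any of the 10 genes. The inducible and constitutive cytosolic HSP70 genes had the lowest estimates, with fold changes of 0.632 for Hspa1a, 0.743 for Hspa1b and 0.728 for Hspa8 in etanercept-treated against control mice, and in each of them control 1 was the highest of the 8 mice. Both HSP90 genes, Hsph1 and Hspd1 had estimates slightly above 1. The genes differed far more between themselves than between the groups, from a mean of 4.22 FPKM for Hspa1a to 469.7 FPKM for Hsp90ab1, and the groups overlapped for all 10.

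Promoter sequence was available for 7 of the 10 genes in the RefSeq table for GRCm38.p6, as windows of 300 bases from 250 before to 50 after an annotated start; Hspa8, Hsp90aa1 and Hsp90ab1 were not in it. A pair of inverted units was searched as GAANNTTC and as TTCNNGAA. Each of these reads the same on both strands, and the matches may overlap. Among all 32851 windows given by RefSeq, 7.86% held the first, 8.52% the second and 15.1% at least one of them. An array of 3 alternating units, in which both pairs overlap by 1 unit, was in 0.603% of windows. Stretches around the matches are printed here because they show what the members share and where Hspa1a and Hspa1b cannot be told apart. They run 5′ to 3′ on the strand of the gene, with the matches in capitals, and positions are counted from the annotated start.
Hspa1a, chr17:34972223-34972290, minus strand: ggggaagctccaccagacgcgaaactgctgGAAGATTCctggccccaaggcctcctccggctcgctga
Hspa1b, chr17:34959305-34959372, minus strand: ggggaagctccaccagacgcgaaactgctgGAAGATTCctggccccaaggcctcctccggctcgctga
Hspb1, chr5:135887772-135887859, plus strand: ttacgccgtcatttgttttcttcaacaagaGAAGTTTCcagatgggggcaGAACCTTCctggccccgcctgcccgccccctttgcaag
Hsph1, chr5:149636351-149636380, minus strand: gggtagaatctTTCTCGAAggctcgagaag
Hspe1, chr1:55088053-55088082, plus strand: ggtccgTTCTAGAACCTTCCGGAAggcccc
Hspd1, chr1:55088053-55088082, minus strand: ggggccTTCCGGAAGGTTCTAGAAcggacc

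The stretches of Hspa1a and Hspa1b were identical, with the match at -104 to -97. Over the whole window of 300 bases the genes differed at 4 positions, counted from 1 at the window's 5′ end and written with the Hspa1a base first, C44T, T47C, T249G and C276T. Hspb1 held 2 matches, at -117 to -110 and at -97 to -90. Hspd1 and Hspe1 lie head to head on chromosome 1 with overlapping ends, and 1 stretch, read from either strand, held an array of 4 alternating units. It lies before the Hspe1 start but within an annotated exon of Hspd1 in GENCODE M21, and it was in the window of the inner of 2 Hspd1 starts, while the window of the outer start held no match. Both windows of Hsph1 held the printed match before the RefSeq start and an array of 3 units after it, which is not printed. The printed stretch overlaps an exon of Hsph1 in GENCODE M21, whose start lies further upstream. No match was found in the windows of Dnajb1, which says only that these letters are not in them. The matches are descriptions of sequence, and binding was not measured.

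The positions of the genes bear on how their reads could be counted. Hspa1a (ENSMUSG00000091971, chr17:34969190-34972156, minus strand) and Hspa1b (ENSMUSG00000090877, chr17:34956436-34959238, minus strand) are neighbours in GRCm38, and 38.1% of the 150-base words of the Hspa1a transcript also occurred in Hspa1b. Hspa1a also shares 564 of its 2967 exon bases with Gm20481 on the other strand. For Hspa8 (ENSMUSG00000015656, chr9:40800984-40810087, plus strand) 56% of such words occurred in transcripts of other genes, for Hspb1 (ENSMUSG00000004951, chr5:135887919-135889563, plus strand) 36.6%, and for Hsp90aa1 (ENSMUSG00000021270, chr12:110690605-110702728, minus strand) 36.2%. The shares were 18.6% for Hspd1 (ENSMUSG00000025980, chr1:55077835-55088243, minus strand) and 14.1% for Hspe1 (ENSMUSG00000073676, chr1:55088132-55091307, plus strand), which overlap each other over 112 exon bases. No shared word was found for Hsp90ab1 (ENSMUSG00000023944, chr17:45567775-45573271, minus strand), Dnajb1 (ENSMUSG00000005483, chr8:83608193-83612653, plus strand) or Hsph1 (ENSMUSG00000029657, chr5:149614287-149636376, minus strand). How reads with more than 1 possible origin, or from the other strand, were counted is not given in the sources used here, so the values of the genes that share words or exon bases are uncertain.

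Total counts were between 13760669 and 25178942 per mouse, and the lowest count of a member in any mouse was 120, for Hspa1a. Marker lists were summed as CPM, the count scaled by the TMM library size, to check the labelled tissue. The 8 prostate epithelium markers summed to between 13720 and 248000 in the controls and between 11150 and 200700 in the treated mice, with none at 0 in any mouse. The 5 seminal vesicle markers ranged from 0 in controls 1 and 3 to 87860 in etanercept 17. The 6 skeletal muscle markers were highest in control 3, at 1765. Adipocyte markers were between 51.9 and 709.5 in the controls and between 20.2 and 39.5 in the treated mice, without overlap, and smooth muscle markers were between 3111 and 6448 and between 5824 and 11560. The leukocyte markers, between 206.2 and 898.2 in the controls and between 265.9 and 420.1 in the treated mice, overlapped in their sum. All 8 had negative estimates, with a median log2 fold change of -0.61, beside 7884 negative estimates among all 15472 genes tested. Cd3e, Cd8a and Cd68 had an unadjusted edgeR p of 0.05 or lower, beside 6.62% of all genes in either direction, while 0 were called. In bulk tissue, fewer cells of a type and less RNA per cell cannot be told apart, and the part of tissue composition in the values below was not tested, beyond the comparison with secretory markers given further on.

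The members were ordered by their level per length. Levels here are FPKM, the scaled CPM divided by the length of all annotated exons of the gene, as mean ± SD over the 8 mice. Hsp90ab1, the constitutive cytosolic HSP90, was at 469.7 ± 71.3, Hspb1, the small heat shock protein HSP25, at 302.4 ± 77.8, and Hspa8, the constitutive HSC70, at 210.6 ± 69.5. This order held in 8 of 8 mice, although the ranges of neighbours in it overlapped. The inducible Hsp90aa1 followed at 81.8 ± 10.7, below Hspa8 without overlap, then the mitochondrial Hspd1, below Hsp90aa1 without overlap, at 60.1 ± 5.21 and Hspe1 at 58.8 ± 10.8. Hspd1 was above Hspe1 in 5 of 8 mice, so these neighbours did not differ beyond their spread. Hspa1b, the more abundant inducible HSP70, was below Hspe1 without overlap at 13.4 ± 4.20, and Dnajb1, a J protein that works with HSP70, at 12.6 ± 2.85, each above the other in 4 of 8 mice. Hsph1, the exchange factor HSP110, was at 6.28 ± 1.32 and Hspa1a at 4.22 ± 2.59, in that order in 7 of 8 mice. The exon length counts every annotated isoform, 7266 nt for Hsph1 against 3802 nt for the transcript used above, so the level of such a gene would be higher per length of a shorter isoform.

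Spread between mice was small for most members. Over the 8 mice the coefficient of variation of CPM was 8.67% for Hspd1, 13.0% for Hsp90aa1 and 15.2% for Hsp90ab1, against a median of 34.8% over all genes tested, and 0.847% of those genes varied less than Hspd1. The genes tested were not matched to the members for level, and the part of level in these CVs was not tested. The CV was 33.0% for Hspa8 and 31.3% for Hspa1b, close to that median. Hspa1a had the highest, 61.3%, above 75.6% of all genes tested, but this rested on control 1. Without that mouse, a calculation added after the values were seen, its CV was 22.5%, below the 24.9% of Hspa8, the 24.1% of Hspa1b and the median of 33.1% over all genes tested in the same mice, and above 30.6% of them.

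**Figure D1:**
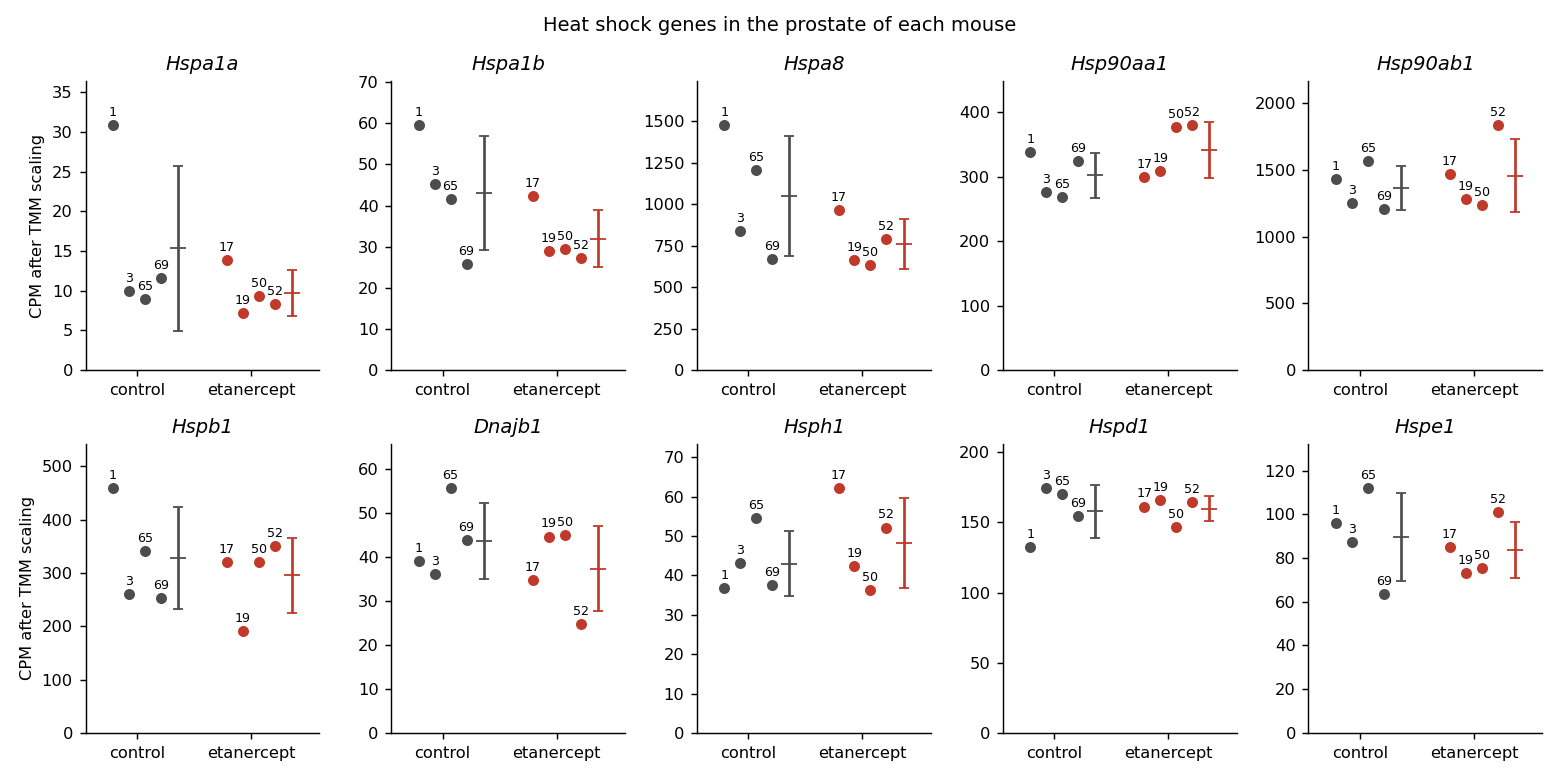
CPM after TMM scaling (vertical axis, from 0) of the 10 heat shock genes in each mouse, controls in grey and etanercept-treated mice in red, with animal numbers at the points and mean ± SD of 4 mice beside them. The groups overlap for every gene, and control 1 stands highest for Hspa1a, Hspa1b, Hspa8 and Hspb1.

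The inducible HSP70 genes came first. Hspa1a was at 30.8 CPM in control 1 and between 8.95, in control 65, and 11.6, in control 69, in the other 3 controls, and at 13.9, 7.22, 9.39 and 8.32 CPM in etanercept 17, 19, 50 and 52. Control 1 was above all other mice, and the other 3 controls lay within the range of the treated mice. Means were 15.3 ± 10.4 CPM in the controls and 9.71 ± 2.94 CPM in the treated group (SD, n = 4), and without control 1 the control mean was 10.2 ± 1.32 CPM. The log2 fold change was -0.66 (SE 0.44, 95% interval -1.64 to 0.31, edgeR adjusted p = 0.833), and -0.089 without control 1.

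Hspa1b was at 59.6, 45.3, 41.7 and 25.8 CPM in controls 1, 3, 65 and 69, and at 42.3, 29.0, 29.5 and 27.2 CPM in etanercept 17, 19, 50 and 52. The groups overlapped because control 69 was the lowest mouse of all and etanercept 17 was level with the middle controls. The log2 fold change was -0.43 (SE 0.26, interval -1.02 to 0.16, edgeR adjusted p = 0.822). It was -0.61 without control 69, where the unadjusted edgeR p was 0.0201, and -0.25 without control 1. The count of Hspa1b over that of Hspa1a was 1.93 in control 1 and 2.23 in control 69, against 4.53 in control 3 and 4.66 in control 65, and between 3.04 and 4.02 in the treated mice. Summed to 1 gene, Hspa1a and Hspa1b had a log2 fold change of -0.49 (SE 0.28, interval -1.11 to 0.14, edgeR adjusted p = 0.802).

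Hspa8, whose protein serves HSP70 functions in unstressed cells, was at 1477, 842 (control 3), 1205 and 670.3 CPM in the controls and at 966.5, 661.7, 635.1 and 788.8 CPM in the treated mice, in the same order of animals. Control 1 was the highest mouse, as for Hspa1b, and the groups overlapped. Means were 1049 ± 362.5 and 763 ± 151.3 CPM (SD, n = 4), and the log2 fold change was -0.46 (SE 0.28, interval -1.09 to 0.18, edgeR adjusted p = 0.822). Without control 1 it was -0.26, and without control 69 it was -0.62, with an edgeR p of 0.0364 unadjusted and 0.404 adjusted.

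The partners of HSP70 did not share this pattern. Dnajb1 was at 38.9, 36.1, 55.7 and 43.8 CPM in the controls and at 34.7, 44.6, 45.02 and 24.7 CPM in the treated mice, with control 65 highest and etanercept 52 lowest. Hsph1 was at 36.8, 43.1, 54.5 and 37.7 CPM in the controls and at 62.3, 42.5, 36.2 and 52.2 CPM in the treated mice, so that the highest and the lowest mouse were both treated. The log2 fold changes were -0.23 (SE 0.23, interval -0.74 to 0.29) for Dnajb1 and 0.17 (SE 0.21, interval -0.31 to 0.64) for Hsph1, with edgeR adjusted p of 0.922 and 0.941. Without etanercept 52 the estimate for Dnajb1 was -0.080, and without etanercept 17 that for Hsph1 was 0.022.

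The HSP90 genes were among the steadiest. Hsp90aa1 was at 338.2, 276.6, 268.5 and 323.5 CPM in the controls and at 299.0, 308.4, 377.4 and 379.7 CPM in the treated mice; the highest values were those of etanercept 50 and 52. Hsp90ab1 was at 1430, 1250 (control 3), 1562 and 1206 CPM in the controls and at 1469, 1284, 1235 and 1833 CPM in the treated mice, and etanercept 52 alone was above every control. Log2 fold changes were 0.18 (SE 0.17, interval -0.20 to 0.56) for Hsp90aa1 and 0.096 (SE 0.22, interval -0.40 to 0.59) for Hsp90ab1, with edgeR adjusted p of 0.907 and 0.983. Without etanercept 52 the estimate for Hsp90ab1 was -0.045.

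Hspb1 was at 459.4, 259.9, 340.9 and 252.8 CPM in the controls and at 319.9, 190.9, 319.9 and 350.3 CPM in the treated mice. Control 1 was again the highest mouse and etanercept 19 the lowest. The log2 fold change was -0.15 (SE 0.26, interval -0.74 to 0.43, edgeR adjusted p = 0.966), and its sign rested on single mice, at 0.038 without control 1 and 0.0092 without etanercept 19.

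Hspd1, a chaperonin gene, had the narrowest interval of the 10 members. Hspd1 encodes HSP60 and was at 132.6, 174.7, 170.3 and 154.5 CPM in the controls and at 161.4, 165.9, 146.8 and 164.9 CPM in the treated mice. Control 1, high for the HSP70 genes, was the lowest mouse here. The group means of 158.0 ± 19.03 and 159.8 ± 8.83 CPM (SD, n = 4) gave a log2 fold change of 0.016 (SE 0.15, interval -0.31 to 0.35, edgeR adjusted p = 0.997), which corresponds to a fold between 0.805 and 1.27. Hspe1, encoding HSP10, was at 95.8, 87.3, 112.1 and 63.6 CPM in the controls and at 84.9, 73.3, 75.3 and 101.2 CPM in the treated mice, and both the highest and the lowest mouse were controls. Its log2 fold change was -0.10 (SE 0.20, interval -0.54 to 0.34, edgeR adjusted p = 0.976).

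**Figure D2:**
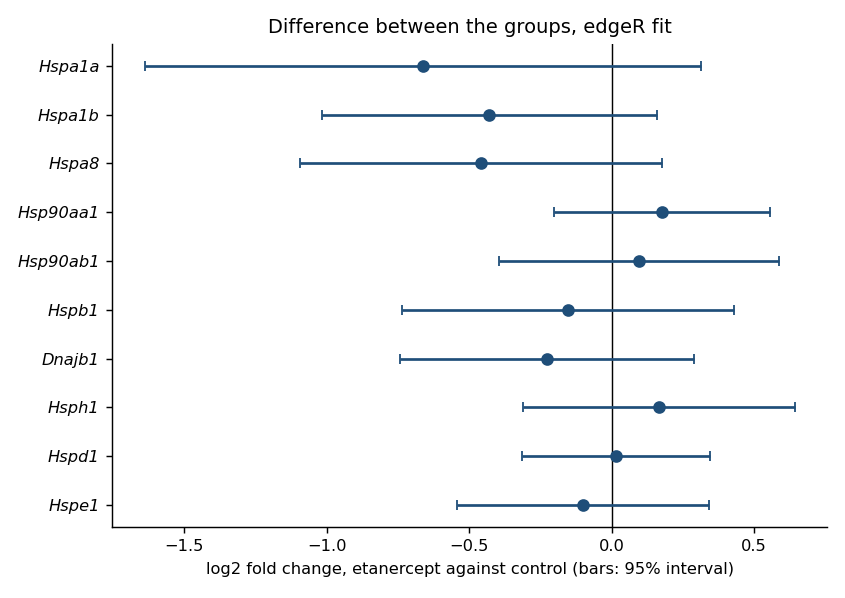
Log2 fold change of etanercept-treated against control mice (horizontal axis) for the 10 genes, as points with 95% intervals from the edgeR fit on 4 mice per group. Every interval includes 0, and the intervals of Hspa1a, from -1.64 to 0.31, and of Hspd1, from -0.31 to 0.35, are the widest and the narrowest.

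A gene was called where its p, adjusted by the Benjamini-Hochberg method over all genes tested, was 0.05 or lower. In the edgeR fit 0 of the 10 members were called, beside 0% of all 15472 genes. With an unadjusted p of 0.05 or lower the member count was also 0, beside 6.62% of all genes. DESeq2 called 0 of the 10, beside 0.0898% of 23393 genes. Groups that did not overlap were found for 0 of 10 members, beside 4.94% of all genes tested. The median log2 fold change was -0.13 over the members, of which 6 had negative estimates, and -0.0099 over all genes tested. Equal levels were not shown either, and the intervals given for each gene bound the differences that these 8 mice allow.

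**Figure D3:**
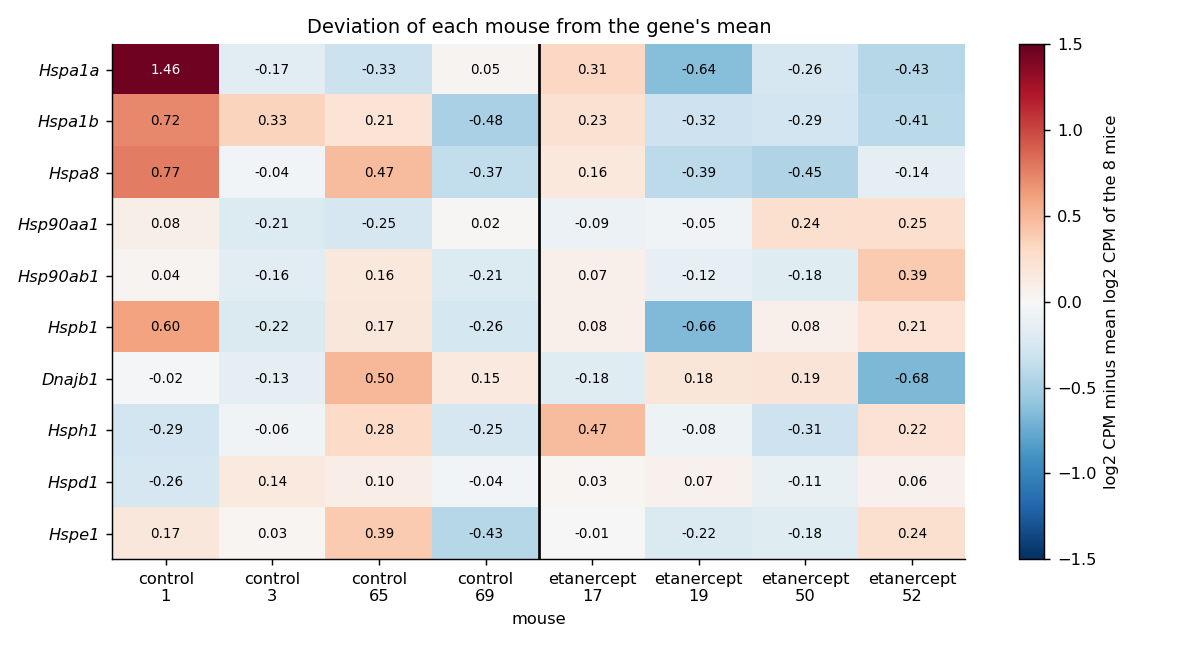
Deviation of log2 CPM from the gene's mean over the 8 mice (colour and printed number), with genes in rows, mice in columns and a line between the control and treated mice. Control 1 is 1.46 above the mean for Hspa1a and 0.77 above it for Hspa8, but 0.26 below it for Hspd1, and etanercept 52 is 0.68 below it for Dnajb1.

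The members did not move as 1 block. Control 65 was above the gene's mean for 8 of the 10 genes, control 1 and etanercept 17 for 7 each, and etanercept 19 for 2. Of the 45 pairs of members, 27 had a positive Pearson's r of log2(CPM + 1) over the 8 mice, with a median of 0.093. After adjustment over the 45 pairs 0 passed 0.05 by r or by Spearman's rho in exact two-sided permutation tests, and 7 did by r and 2 by rho before it. All points of such a correlation share the library and its scaling.

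By r the closest pair was Hspa1b with Hspa8, and by rho it was Hsp90ab1 with Hspe1. For Hspa1b with Hspa8 r was 0.88 (exact permutation p = 0.00469, adjusted p = 0.211, n = 8) and rho 0.69 (exact permutation p = 0.0694, adjusted p = 0.592). Without controls 1 and 69, the mice farthest from the median of Hspa1b, r was 0.72, and for deviations from the group means it was 0.84. Hsp90ab1 with Hspe1 had r = 0.79 (exact permutation p = 0.0192, adjusted p = 0.264, n = 8) and rho = 0.81 (exact permutation p = 0.0218, adjusted p = 0.592), and r = 0.71 without control 65 and etanercept 52. For the near-identical Hspa1a and Hspa1b, r was 0.72 (exact permutation p = 0.0279, adjusted p = 0.264, n = 8) and rho 0.55 (exact permutation p = 0.171, adjusted p = 0.592); without control 1 and etanercept 17, r was 0.057, so the relation rested on those mice. The subunits of one chaperonin, Hspd1 and Hspe1, had r = 0.15 (exact permutation p = 0.718, adjusted p = 0.892, n = 8) and rho = 0.29 (exact permutation p = 0.501, adjusted p = 0.862), and r = 0.65 without control 1 and etanercept 50.

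Ratios of counts within a mouse do not depend on scaling. The count of the inducible Hsp90aa1 over that of the constitutive Hsp90ab1 was between 0.172, in control 65, and 0.306, in etanercept 50, and its log2 value was -2.17 ± 0.27 in the controls and -2.08 ± 0.27 in the treated mice (SD, n = 4). The difference of 0.089 was within that spread (exact two-sided permutation test, p = 0.686, adjusted over 3 ratios p = 0.8286). The count of both inducible HSP70 genes over that of Hspa8 was between 0.0420, in control 65, and 0.0657, in control 3. Its log2 value was -4.17 ± 0.28 and -4.20 ± 0.20, a difference of -0.025 (exact permutation p = 0.8286, adjusted p = 0.8286, n = 4 per group), so Hspa1a and Hspa1b together and Hspa8 had lower estimates in the treated mice by nearly the same factor. For Hspd1 over Hspe1 the ratio ran from 1.38 in control 1 to 2.43 in control 69, both controls, and the log2 difference of 0.10 was again within the spread (exact permutation p = 0.657, adjusted p = 0.8286, n = 4 per group). The smallest p that 4 mice against 4 can give is 0.0286.

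**Figure D4:**
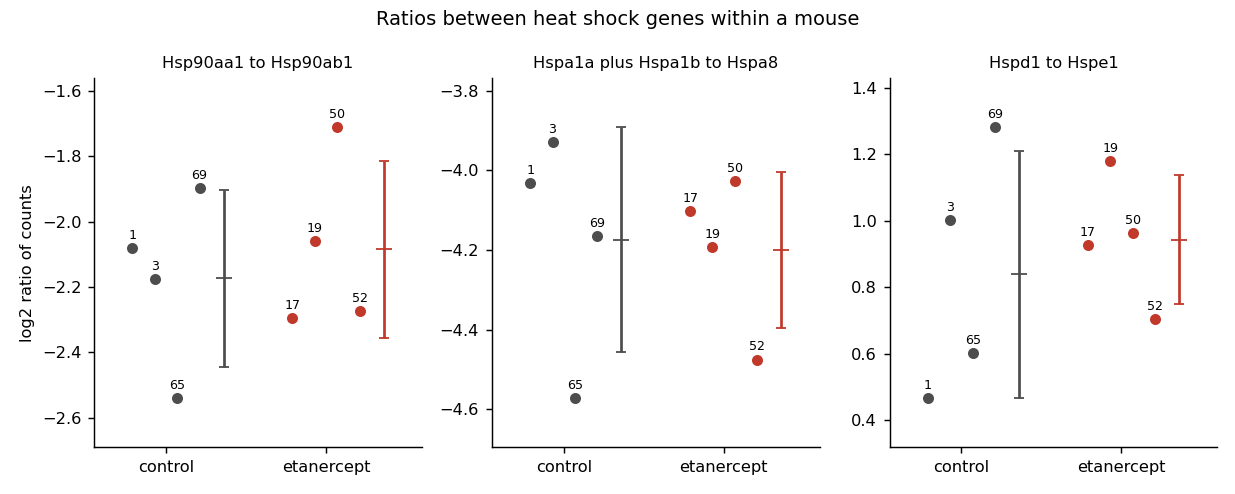
Log2 ratio of counts within each mouse (vertical axis) for 3 pairs of heat shock genes, controls in grey and treated mice in red, with animal numbers at the points and mean ± SD of 4 mice beside them. The groups overlap in all 3 panels; the highest and lowest Hspd1 to Hspe1 ratios, 1.28 and 0.47 on the log2 scale, are both those of control mice.

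The members were also set beside secretory and other epithelial transcripts of the prostate. This comparison was chosen after the values were seen and covers the 10 members and the 8 prostate epithelium markers, 80 relations, of which 0 passed 0.05 after adjustment by r or by rho. Sbp, which encodes spermine binding protein, a secretory product of the prostate, was at 1547, 63890, 15640 and 225800 CPM in controls 1, 3, 65 and 69 and at 1618, 174100, 180200 and 55950 CPM in etanercept 17, 19, 50 and 52. The highest Hspa8 level was in control 1, where Sbp was lowest. The r of Hspa8 with Sbp was -0.86 (exact permutation p = 0.00861, adjusted over 80 p = 0.163, n = 8) and the rho -0.88 (exact permutation p = 0.00724, adjusted p = 0.205). Without control 1 and etanercept 17, r was -0.97, and for deviations from the group means it was -0.925.

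Hspa1b had r = -0.81 with Sbp (exact permutation p = 0.0151, adjusted p = 0.163, n = 8) and rho = -0.71 (exact permutation p = 0.0576, adjusted p = 0.288), and r = -0.68 without the same mice. With Pbsn, encoding the androgen-regulated probasin, Hspe1 had r = 0.88 (exact permutation p = 0.00479, adjusted p = 0.163, n = 8) and rho = 0.81 (exact permutation p = 0.0218, adjusted p = 0.248), and r = 0.73 without control 69 and etanercept 50. Pbsn was between 1094 CPM, in control 69, and 9172 CPM, in control 1, and the groups overlapped.

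Immediate early genes, which are transcribed within minutes of a stimulus such as a growth factor, were examined beside the members. Fos was at 149.1, 45.6, 19.7 and 5.96 CPM in controls 1, 3, 65 and 69 and at 26.9, 12.3, 2.81 and 10.5 CPM in the treated mice. Control 1 was thus highest for Fos as for Hspa1a and Hspa1b. Control 3, next for Fos, was unremarkable for Hspa1a, but for Hspa1b the controls ranked as for Fos, at 59.6, 45.3, 41.7 and 25.8 CPM. Of the treated mice, etanercept 17 was highest for Fos, Hspa1a and Hspa1b, while etanercept 50, lowest for Fos, was next for both HSP70 genes. Egr1 was at 92.8, 78.2, 25.1 and 13.3 CPM in controls 1, 3, 65 and 69. In etanercept 17, 19, 50 and 52 it was at 20.5, 13.7, 18.2 and 25.9 CPM. The log2 fold changes were -2.07 for Fos, -1.42 for Egr1, -0.31 for Jun and 0.35 for Atf3, with edgeR adjusted p of 0.743, 0.739, 0.924 and 0.925. Of the 11 genes of this list 0 were called, 8 had an unadjusted p of 0.05 or lower and a negative estimate, beside 6.62% of all genes tested in either direction, and the summed level was between 418.0 and 802.5 CPM in the controls and between 289.0 and 384.9 CPM in the treated mice. The part of these differences in the HSP70 values was not tested.

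The wider chaperone system was taken as 7 lists with 87 genes tested. Of these 0 were called by edgeR, and at an unadjusted p of 0.05 or lower there were 3 with positive and 8 with negative estimates, beside 463 and 561 of all genes tested. The median log2 fold change was -0.083. Groups did not overlap for 3 of the 87 genes, beside the 4.94% of all genes given above.

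Among the heat shock factors, Hsf1, the regulator of the stress response, was at 17.03 ± 4.57 CPM in the controls and 13.2 ± 2.93 CPM in the treated mice (SD, n = 4), with a log2 fold change of -0.36 (edgeR adjusted p = 0.863). Hsf2 was at 17.3 ± 1.38 and 15.5 ± 4.30 CPM and Hsf4 at 3.83 ± 1.88 and 2.82 ± 1.91 CPM. The 5 genes tested of this list, the 3 factors and the genes of the factor-binding proteins Hsbp1 and Hsf2bp, had a median of -0.15 and 0 at an unadjusted p of 0.05 or lower.

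Other HSP70 and HSP110 genes, cytosolic except for Hspa13 of the endoplasmic reticulum, had a positive median, 0.14 over 7 genes tested, with 0 at an unadjusted p of 0.05 or lower. Hspa4, an exchange factor of the HSP110 family, was at 128.3 ± 17.9 and 140.9 ± 19.6 CPM, its relative Hspa4l at 19.5 ± 6.20 and 28.7 ± 7.56 CPM and Hspa13 at 49.1 ± 6.68 and 66.0 ± 20.01 CPM. The log2 fold changes were 0.14, 0.56 and 0.43, with edgeR adjusted p of 0.939, 0.774 and 0.787. Summed over the list, the level was between 244.0 and 277.8 CPM in the controls and between 283.0 and 320.9 CPM in the treated mice, without overlap, as for 1 of the 7 list sums, while the groups overlapped for each of the 7 genes.

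Other small heat shock proteins had a median of 0.16 over 6 genes. Hspb6, the small heat shock protein HSP20 of smooth muscle, was at 23.1, 65.4, 48.3 and 107.9 CPM in the controls and at 131.1, 100.3, 174.3 and 249.1 CPM in the treated mice. Only etanercept 19 lay within the range of the controls, below control 69. Its log2 fold change was 1.42 (SE 0.44, unadjusted p = 0.00976, edgeR adjusted p = 0.739), the only one of this list at an unadjusted p of 0.05 or lower. All 6 smooth muscle markers also had positive estimates, with a median of 0.76, and their part in the Hspb6 value was not tested. Hspb8, a partner of the exchange factor Bag3, was at 128.3 ± 48.8 and 170.4 ± 52.2 CPM, and Cryab, alpha B crystallin, at 28.7 ± 8.99 and 34.9 ± 8.99 CPM, with log2 fold changes of 0.41 and 0.28 (edgeR adjusted p = 0.870 and 0.914).

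The 15 J proteins had a median of 0.098, with 1 positive and 1 negative estimate at an unadjusted p of 0.05 or lower. Dnajb14, a J protein of the endoplasmic reticulum membrane, was at 52.1 ± 10.2 CPM in the controls and 75.6 ± 9.25 CPM in the treated mice, without overlap (log2 fold change 0.54, unadjusted p = 0.0149, edgeR adjusted p = 0.739). Dnajc7 was at 115.4 ± 11.49 and 91.3 ± 6.78 CPM (log2 fold change -0.34, unadjusted p = 0.0365, edgeR adjusted p = 0.739). Dnaja1, an abundant cytosolic J protein, was at 117.8 ± 11.0 and 118.9 ± 5.71 CPM, with a log2 fold change of 0.014 (edgeR adjusted p = 0.997).

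Co-chaperones of HSP70 and HSP90 had a median of -0.18 over 24 genes, 16 of them with negative estimates, and 4 at an unadjusted p of 0.05 or lower, all negative. Ahsa1, which stimulates the ATPase of HSP90, was at 96.9, 84.4, 102.2 and 83.2 CPM in the controls and at 58.2, 75.6, 75.5 and 68.3 CPM in the treated mice, all below the controls. Its log2 fold change was -0.40 (SE 0.15, unadjusted p = 0.0242, edgeR adjusted p = 0.739), while the HSP90 genes themselves were at 0.18 and 0.096. Ppid, the cyclophilin that binds HSP90, was at 20.6 ± 2.94 and 12.4 ± 4.03 CPM (log2 fold change -0.73, unadjusted p = 0.0205, edgeR adjusted p = 0.739). Stip1, which links HSP70 to HSP90, was at 81.9 ± 13.4 and 75.1 ± 7.60 CPM, Bag3 at 69.8 ± 9.01 and 79.3 ± 7.84 CPM and Chordc1 at 40.2 ± 12.4 and 40.5 ± 7.54 CPM, with edgeR adjusted p of 0.946, 0.878 and 0.999.

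In mitochondria, Hspa9, the matrix HSP70, was at 194.5 ± 17.7 and 199.5 ± 7.70 CPM, close to level like Hspd1 (log2 fold change 0.036, edgeR adjusted p = 0.994). Trap1, the mitochondrial HSP90, was at 48.7, 53.3, 51.4 and 49.5 CPM in the controls and at 73.1, 53.2, 66.1 and 71.5 CPM in the treated mice. Etanercept 19 lay just below control 3 and the other 3 treated mice above all controls (log2 fold change 0.38, SE 0.15, unadjusted p = 0.0304, edgeR adjusted p = 0.739). Yme1l1, a protease of the inner membrane, was at 70.4 ± 9.35 and 88.4 ± 7.15 CPM (log2 fold change 0.33, edgeR adjusted p = 0.743). The 16 genes of the list had a median of -0.097.

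The cytosolic chaperonin TRiC and its cofactor prefoldin had a median of -0.19 over 14 genes, with 3 negative estimates at an unadjusted p of 0.05 or lower. The prefoldin subunits Pfdn6, at 48.2 ± 15.3 and 24.1 ± 9.74 CPM, and Pfdn1, at 55.5 ± 13.2 and 36.2 ± 7.57 CPM, had log2 fold changes of -0.998 and -0.62 (unadjusted p = 0.0124 and 0.0219, edgeR adjusted p = 0.739 for both). Across genes, exon length was correlated with the deviation of a mouse from the mean, with a Spearman's rho between -0.16 and -0.011 in the controls and between 0.064 and 0.15 in the treated mice, so short genes tended to be lower in the treated group. Genes are not independent replicates, and the groups did not overlap in this measure. With that trend removed, the estimates of the short members Hspb1 and Hspe1 were 0.10 and 0.071, of the opposite sign.

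**Figure D5:**
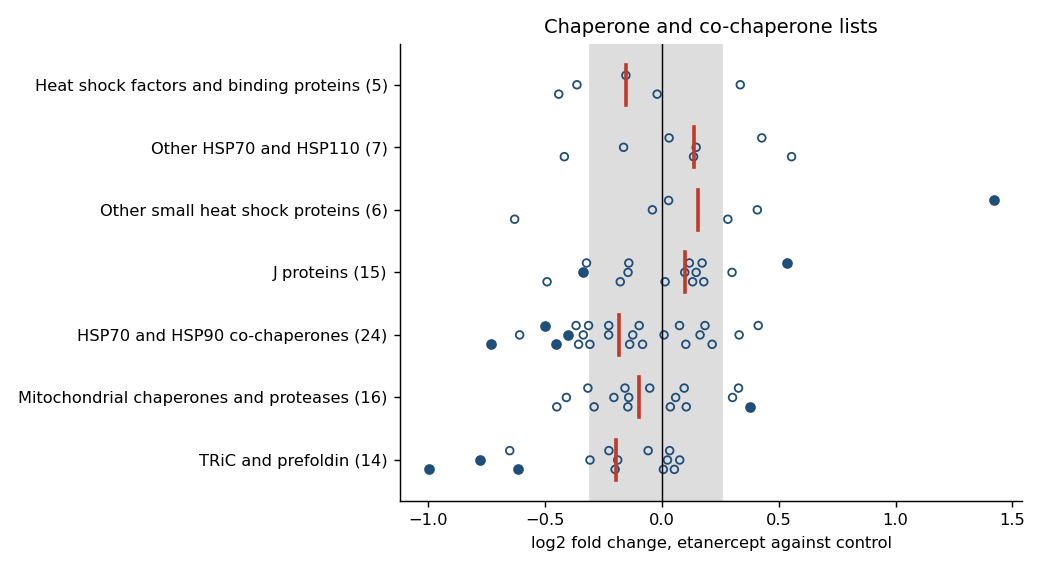
Log2 fold change of etanercept-treated against control mice (horizontal axis) for the genes tested of 7 chaperone lists, with the number of genes in brackets, the list median as a red line and the range between the quartiles of all genes tested as the grey band from -0.31 to 0.26. Filled points have an unadjusted p of 0.05 or lower, 3 to the right of 0 and 8 to the left, and open points do not.

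Other genes tested were ranked by Pearson's r of their log2(CPM + 1) over the 8 mice with the mean scaled level of a set of members. The members of a set differed in course, with r of -0.25 between Hspa1a and Hsph1, -0.27 between Dnajb1 and Hsph1 and 0.15 between Hspd1 and Hspe1, so likeness to the mean is not likeness to each member. For the inducible cytosolic Hspa1a, Hspa1b, Dnajb1 and Hsph1 the 5 highest were Gm20342 (r = 0.98), Arf5 (0.98), Gm10563 (0.98), Trmt112 (0.97) and Ercc1 (0.97). For Hspd1 and Hspe1 the 5 highest included Maip1 (0.94), Homer3 (0.93) and Gm42984 (0.92). The values are descriptions over 8 mice, chosen as the highest of all genes tested, and have no p.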

How the data were processed

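Total RNA of the 8 prostates was poly(A)-selected, and libraries were made with the NEBNext Ultra II kit and sequenced as paired reads of 150 nt. Per the labels, reads were processed with fastp, mapped to mm10 with STAR 2.6.1d and counted per gene with featureCounts 1.5.0-p3, and DESeq2 1.26.0 was used for the authors' comparisons. The settings for strand and for reads with several origins, and the annotation, are not given in the sources used here. The authors deposited raw counts, without normalization, and these were used as they stand.

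The study's methods state random assignment of mice with block stratification. The labels name no block, and none was modelled. Identifiers were matched to GENCODE M21 (GRCm38), and 54495 of 54532 were found. The groups were compared with the quasi-likelihood test of edgeR 4.0.16 in R 4.3.3, after filterByExpr (minimum count of 10) and TMM scaling. P-values were adjusted by the Benjamini-Hochberg method over all 15472 genes tested. Fold changes are on the log2 scale. The study's own test, DESeq2 (here 1.42.0), was an alternative, together with other scaling factors, filters, a robust fit, removal of the length trend, protein-coding genes only, Hspa1a and Hspa1b summed, and leaving out each mouse in turn. Single values were compared with exact permutation tests over 70 assignments of the mice. Depth sets the counting error only, which is small here: the members together held between 0.255% (Wilson 95% interval 0.253% to 0.258%) of the counts, in control 69, and 0.450% (0.448% to 0.453%), in control 1.

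The members, the gene lists and the rule for naming genes were chosen with earlier results of these data known. By that rule all members were named, 15 further genes of the stress response (Hsf1, Hsf2, Bag3, Hspb8, Cryab, Hspa9, Hspa4, Dnaja1, Stip1, Chordc1, Trap1, Fos, Egr1, Jun and Atf3), the 2 genes of each chaperone list with the smallest unadjusted p, and the 5 genes most like the mean of each set of members. Sbp and Pbsn were named after their values were seen. Some genes that the rule names are not reported here.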

Additional observations from a re-analysis of the deposited data

Results flagged for a closer look

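In 26 groups of 4 values, the highest and the lowest mouse were compared with the rest by Dixon's ratio, the gap to the nearest mouse over the range against Dixon's 95% critical value. Chance flags about 1 in 20 such groups, and 2 passed. Hspa1a in control 1 was at 30.84 CPM, with a gap of 0.880 of the range of the controls, and the other controls were between 8.95 and 11.6 CPM. Hspa1b in etanercept 17 was at 42.34 CPM, with a gap of 0.844 of the range, and the other treated mice were between 27.2 and 29.5 CPM. Etanercept 17 was also the mouse with most seminal vesicle transcripts, 87860 CPM over the 5 markers.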

How the results depend on the processing

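No member was called under any of the 19 alternatives. In every edgeR alternative 0 of all genes tested were called, so the member count there could not differ and is no sign of robustness. DESeq2 called 0.0898% of 23393 genes. Of the 190 estimates they gave for the 10 members, 179 kept the sign reported and 11 did not, all of them small: Hspb1 was at 0.10 and Hspe1 at 0.071 with the length trend removed, and Hspd1 at -0.0039 with upper-quartile factors and at -0.062 with library size alone. Leaving out each mouse in turn gave -0.045 to 0.17 for Hsp90ab1, -0.26 to 0.038 for Hspb1, -0.078 to 0.065 for Hspd1, -0.23 to 0.0077 for Hspe1, 0.11 to 0.24 for Hsp90aa1, -0.33 to -0.080 for Dnajb1 and 0.022 to 0.28 for Hsph1. The estimates of Hspa1a, Hspa1b and Hspa8 stayed negative in every alternative and depended in size on control 1. The same omissions gave differences of -0.035 to 0.18 for the log2 ratio of Hsp90aa1 to Hsp90ab1, -0.16 to 0.066 for the inducible HSP70 genes to Hspa8, and -0.019 to 0.25 for Hspd1 to Hspe1, with a smallest exact permutation p of 0.2. By group medians the Hsp90aa1 to Hsp90ab1 difference was -0.037. With an unadjusted p of 0.05 or lower there were 11 chaperone list genes against 0 at the adjusted threshold, and 0 members. By Spearman's rho 2 of the 5 genes most like the mean of the inducible set were among the 50 highest, and 5 of 5 for the mitochondrial set. The causes were not tested. The median of all genes tested was -0.094 with library size alone. No paired analysis was possible because the labels name neither pairs nor the blocks used in assigning the mice.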
